A study of Mus musculus with 15 samples.

Results

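Some names on mouse miRNA arrays belong to entries that were later withdrawn from miRBase, the registry of miRNAs, as probable fragments of ribosomal RNA. The entries described here were found by the pattern of their names, miR-2132 to miR-2135, miR-2138 and miR-2140 to miR-2146 with the suffix _v15.0. They were 8 of the 696 mouse miRNAs on the array, namely mmu-miR-2132_v15.0, mmu-miR-2133_v15.0, mmu-miR-2134_v15.0, mmu-miR-2135_v15.0, mmu-miR-2138_v15.0, mmu-miR-2140_v15.0, mmu-miR-2141_v15.0 and mmu-miR-2146_v15.0. The pattern covers 12 numbers, and the other 4 had no entry with this suffix. The group was chosen with measured values known. Of its members, miR-2132_v15.0, miR-2133_v15.0, miR-2135_v15.0, miR-2141_v15.0 and miR-2146_v15.0 had been selected on their Z ratios between diets. A Z ratio is a difference between group means on the z-score scale, divided by the standard deviation of such differences over all mouse miRNAs. The values of all 8 entries are therefore given as a description. The numbers of entries that met limma's criteria are printed further on beside those of all miRNAs, and nothing is read from them.

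The arrays profiled the livers of 15 male mice, 1 year old when the diets began and kept on them for the rest of their lives. The sample labels give the strain as B6C57/J, while the paper writes C57BL/6. The 5 SD mice had free access to the AIN-93G standard diet, the 5 CR mice were on 40% caloric restriction of this diet, and the 5 Met mice had free access to it with 0.1% w/w metformin added. Each mouse had 1 array of 1 color, on which probes capture RNA labeled with Cy3 and the light of each spot is read by a scanner. Slide 1 held the 5 SD arrays with Met mice 1 to 3, and slide 2 held the 5 CR arrays with Met mice 4 and 5. The slide and the difference between CR and SD can be parted only through the Met mice, and values within a slide are given beside the main results.

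Ribosomal RNA is the most abundant RNA of a cell, and its processing and breakdown leave short pieces that can be labeled together with miRNAs. A probe for such a piece reports light from RNA that did not pass through Drosha and Dicer, the enzymes that cut miRNA precursors. The same holds for pieces of transfer RNA, and former miRNA names such as miR-720 and miR-1937 are known as such pieces. The liver, whose hepatocytes make large amounts of protein, holds much ribosomal and transfer RNA.

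None of the 8 entries was in the RefSeq table of mouse miRNAs (assembly GRCm38.p6), and 0 of 8 could therefore be given a sequence from it. Of the numbers between them, miR-2136, miR-2137 and miR-2139 were looked up and are listed there, and their mature sequences are shown as neighbors by number. The mature sequences of the miRNAs whose z-scores followed or opposed those of miR-2146_v15.0, the brightest entry, are shown after them. Capitals mark the seed, bases 2 to 8, and sequences run 5′ to 3′. The neighbors by number are these:
miR-2136: cUGGGUGUugacugagaugug
miR-2137: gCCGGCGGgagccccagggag
miR-2139: aGCUGCGCugcuccugguaacugc
Those with the highest correlation are these:
miR-744-5p: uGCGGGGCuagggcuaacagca
miR-193a-5p: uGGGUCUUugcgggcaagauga
miR-770-3p: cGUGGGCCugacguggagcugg
miR-139-3p: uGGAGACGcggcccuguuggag
miR-338-5p: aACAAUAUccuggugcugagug
Those with the lowest correlation, besides miR-142-3p, are these:
miR-19b-3p: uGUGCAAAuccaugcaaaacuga
miR-30e-5p: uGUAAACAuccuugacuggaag
miR-29b-3p: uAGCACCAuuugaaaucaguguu
miR-101a-3p: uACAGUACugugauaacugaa
The 12 sequences had 12 different seeds. In RefSeq GRCm38.p6, miR-2136 lies at chr9:104426163-104426183 on the plus strand, outside other listed genes. miR-2137 lies at chrX:72992113-72992133 on the plus strand within the bounds of Zfp185, and miR-2139 at chr4:139967531-139967554 on the minus strand within those of Klhdc7a. Among the miRNAs that followed miR-2146_v15.0, miR-744-5p lies at chr11:65734799-65734820 within Map2k4, miR-193a-5p at chr11:79711975-79711996 outside other listed genes and miR-770-3p at chr12:109563744-109563765 within the noncoding gene Meg3. miR-139-3p lies at chr7:101475418-101475439 within Pde2a and miR-338-5p at chr11:120014816-120014837 within Aatk. Of those that opposed it, miR-30e-5p lies at chr4:120772660-120772681 within Nfyc and miR-101a-3p at chr4:101346957-101346977 within a noncoding gene. miR-19b-3p and miR-29b-3p each come from 2 loci.

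The label of the tissue was checked against miRNA markers of cell types. Of 6 hepatocyte markers on the array, 4 were detected on all 15 arrays, with miR-122-5p the brightest. Both neuron markers, miR-124-3p and miR-9-5p, were detected on 0 arrays. The 3 muscle markers, miR-1a-3p, miR-133a-3p and miR-206-3p, were detected on 1 array only, that of CR mouse 5, where their summed signal was 580 units. On the other arrays it was between 0.887 units in SD mouse 5 and 7.18 units in Met mouse 2. Markers of other cells were low in CR mice 2 and 3, the arrays where the 8 entries held their highest shares. The summed endothelial markers gave 169 and 166 units there and from 348 to 664 on the other 13 arrays, and the erythrocyte markers gave 28.1 and 34.3 against 201 to 571. The leukocyte markers gave 38.1 and 29.6 units there against 62.1 to 167, and the hepatocyte markers 11513 and 7970 against 13495 to 22949. These 2 arrays also had the fewest detected miRNAs, 167 and 151, and the lowest summed signals of the miRNAs other than the 8 entries, 41298 and 33865 units. The low values were thus not particular to 1 cell type. Fewer cells of a type, less RNA per cell and a lower miRNA signal over the whole array cannot be told apart here.

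All 8 entries were detected on all 15 arrays by the scanner software, compared with 139 of the 696 mouse miRNAs. The entries occupied 160 spots of an array, from 17 probes, and 0 of their 2400 spots over all arrays were saturated. Their brightness, the spot signal minus its local background, was measured in the scanner's linear units. It depends on the binding of the probe as well as on the amount of RNA, so the order of brightness below is an order of light and not of RNA. Among the 20 other entries with a version suffix, 8 were detected on all arrays and 11 on none. miR-2145_v16.0, which has a number of the same run but a later suffix, was bright as well, at 1273 ± 443 units in SD (mean ± SD, n = 5). Of the neighbors still listed, miR-2137 gave 120 ± 15.0 units in SD (mean ± SD, n = 5), and miR-2136 and miR-2139 were detected on 0 arrays.

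The brightest entry was miR-2146_v15.0. Its signal was 13605, 13361, 22152, 14374 and 21671 units in SD mice 1 to 5. In CR mice 1 to 5 it was 23127, 20826, 15253, 17276 and 17507 units, and in Met mice 1 to 5 it was 19462, 14031, 16621, 14578 and 17318 units. The arrays of the 3 diets overlapped, with the lowest value in SD mouse 2 and the highest in CR mouse 1. The means were 17032 ± 4472 units in SD, 18798 ± 3139 in CR and 16402 ± 2191 in Met (mean ± SD, n = 5). On the log2 scale, CR was 0.17 above SD and 0.19 above Met, and Met minus SD was -0.03.

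The next entries in brightness were miR-2138_v15.0, with 5673 ± 1999 units in SD, 4958 ± 209 in CR and 4828 ± 1110 in Met, and miR-2141_v15.0, with 4403 ± 849, 4186 ± 200 and 3758 ± 512 units (mean ± SD, n = 5). miR-2135_v15.0 gave 2899 ± 595 units in SD, 3251 ± 419 in CR and 2645 ± 269 in Met, and miR-2140_v15.0 gave 2446 ± 764, 2055 ± 130 and 3018 ± 2230 units. In SD, the dimmest were miR-2134_v15.0 at 1557 ± 237 units, miR-2132_v15.0 at 1488 ± 715 and miR-2133_v15.0 at 1120 ± 251. In this order, miR-2146_v15.0 stood clear of the others on every array, while among the other 7 entries the SD arrays of neighbors in the order overlapped. For 7 of the 8 entries, the means of CR and Met lay within 1 SD of the SD arrays from the SD mean, and the exception was miR-2132_v15.0 in Met. The coefficient of variation between mice was lower in CR than in SD for each of the 8 entries, from 4.21% to 16.7% in CR and from 15.2% to 48.1% in SD.

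**Figure D1:**
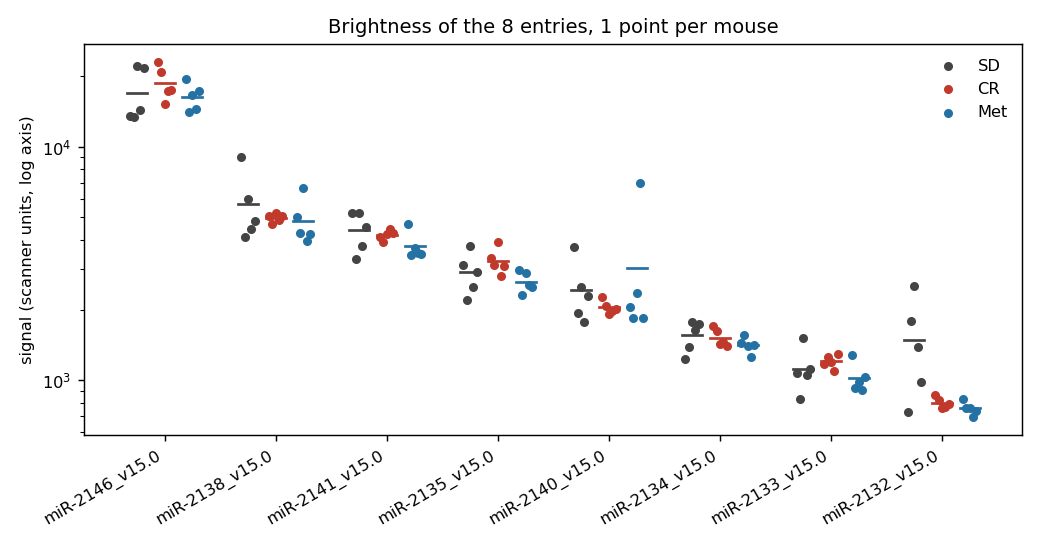
Background-subtracted signal of the 8 entries in scanner units on a log axis, with 1 point for each mouse and a bar at the mean of each diet (n = 5). The diets overlap for every entry, single arrays stand apart for miR-2138_v15.0 (SD mouse 1, 9011 units) and miR-2140_v15.0 (Met mouse 4, 6989 units), and SD mice 2 to 4 are high for miR-2132_v15.0.

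The spread between mice was larger than that between spots. The coefficient of variation over the spots of a probe on 1 array had a median of 1.61% for miR-2141_v15.0, the lowest of the 8 entries, and 4.69% for miR-2146_v15.0, the highest. Probes of 1 entry differed in brightness, by 0.31 on the log2 scale for miR-2138_v15.0 and by 2.40 for miR-2132_v15.0, between the brightest and the dimmest. This distance had an SD over the 15 arrays between 0.03 for miR-2133_v15.0 and 0.16 for miR-2132_v15.0. For miR-2138_v15.0 it ran from 0.07 in Met mouse 3 to 0.43 in CR mouse 4, and for miR-2132_v15.0 from 2.06 to 2.61.

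Several entries were bright on single arrays. The signal of miR-2140_v15.0 in Met mice 1 to 5 was 2054, 1849, 2356, 6989 and 1840 units, with Met mouse 4 far above the others on both probes, at 8707 and 5271 units. In SD mice 1 to 5 it was 3709, 1933, 2517, 1775 and 2297 units. SD mice 1, 3 and 5 and Met mice 3 and 4 lay above all CR arrays, which ranged from 1929 to 2267 units. The signal of miR-2138_v15.0 in SD mice 1 to 5 was 9011, 4105, 5996, 4424 and 4829 units. SD mouse 1 was the highest of all 15 arrays for this entry and also for miR-2145_v16.0, at 2029 units. Over the 15 arrays, the log2 signals of miR-2138_v15.0 and miR-2145_v16.0 had a Pearson correlation of 0.933.

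miR-2132_v15.0 differed from the other entries in its pattern. Its signal was 734, 1797, 2544, 1383 and 983 units in SD mice 1 to 5. It was 863, 825, 763, 766 and 791 units in CR mice 1 to 5 and 835, 758, 763, 695 and 738 units in Met mice 1 to 5. SD mice 2 to 5 lay above all CR and Met arrays, while SD mouse 1 lay below most of them. The difference from SD was -0.76 for CR and -0.84 for Met on the log2 scale, and on slide 1 the difference between Met mice 1 to 3 and SD was -0.788.

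As a share of the summed signal of all mouse miRNAs on the array, the 8 entries together held 26.4%, 19.3%, 24.6%, 21.2% and 29.3% in SD mice 1 to 5. They held 35.3%, 48.1%, 50%, 37.2% and 28.8% in CR mice 1 to 5. In Met mice 1 to 5 they held 31.3%, 20.2%, 23.8%, 29.0% and 20.5%. CR mice 1 to 4 lay above all SD and Met arrays, and CR mouse 5, the mouse with the muscle markers, lay within their range. The mean share was 24.2% ± 4.03 in SD, 39.9% ± 8.95 in CR and 25% ± 5.01 in Met (mean ± SD, n = 5). Without background subtraction, the mean shares were 16.4% in SD, 21.7% in CR and 16.1% in Met. Without CR mouse 5, the CR mean was 42.7%. On slide 2 the mean was 39.9% in the 5 CR mice and 24.8% in Met mice 4 and 5, and on slide 1 it was 25.1% in Met mice 1 to 3 and 24.2% in the SD mice.

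**Figure D2:**
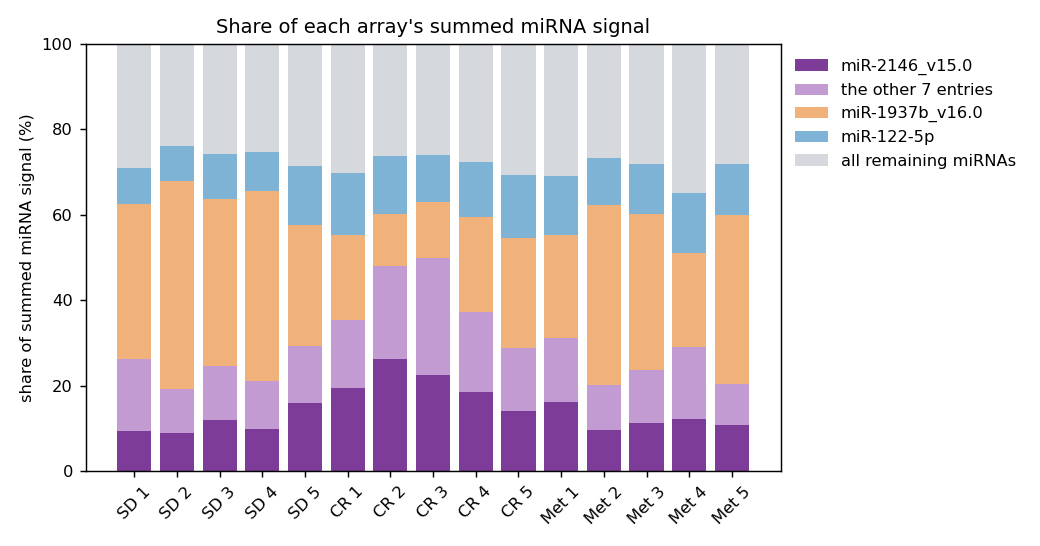
Share of the summed miRNA signal of each array in percent, stacked for miR-2146_v15.0, the other 7 entries, miR-1937b_v16.0, miR-122-5p and all remaining miRNAs. The 8 entries reach 48.1% and 50% in CR mice 2 and 3, on the arrays where miR-1937b_v16.0 has its lowest shares, 12% and 13.1%.

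miR-2146_v15.0 alone held 11.2% ± 2.84 of the summed signal in SD, 20.2% ± 4.46 in CR and 12.1% ± 2.47 in Met (mean ± SD, n = 5). miR-2138_v15.0 held 3.77% ± 1.45, 5.42% ± 1.44 and 3.52% ± 0.779, and miR-2141_v15.0 held 2.92% ± 0.577, 4.57% ± 1.15 and 2.78% ± 0.670. Every entry other than miR-2132_v15.0 and miR-2140_v15.0 had its highest mean share in CR. For miR-2132_v15.0 the mean share was 0.952% in SD, 0.872% in CR and 0.556% in Met, and for miR-2140_v15.0 it was 1.63%, 2.23% and 2.32%, with Met mouse 4 at 5.89%.

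The summed signal of the 8 entries, in units rather than as a share, was 36619 ± 6761 in SD, 36773 ± 3187 in CR and 33850 ± 3203 in Met (mean ± SD, n = 5). These means differed by less than the SD of the SD arrays, and the arrays overlapped. The denominator of the share, in contrast, was lower in CR. The summed signal of the 688 other miRNAs was 104841, 121378, 139022, 114846 and 96531 units in SD mice 1 to 5. In CR mice 1 to 5 it was 76230, 41298, 33865, 58527 and 87488 units, and in Met mice 1 to 5 it was 82766, 115265, 113479, 84134 and 125886 units. All CR arrays lay below all SD arrays, and CR mouse 5 lay above Met mice 1 and 4.

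This sum leaves out the values of the 8 entries and was tested. It is not independent of their choice, since Z ratios rest on z-scores, which contain each array's mean and standard deviation over all spots. Over the 15 arrays, the z-score of miR-2146_v15.0 had a Pearson correlation of -0.901 with the log2 sum. The p-values therefore describe the sum and are no evidence about the entries. CR was 1.03 below SD on the log2 scale, with log2 means of 15.77 and 16.80 (two-sided exact permutation test over 252 splits, n = 5 and 5, p = 0.00794, the smallest these splits allow, adjusted p = 0.0238 over 3 comparisons). Without background subtraction the same difference was -0.48 (exact permutation test, adjusted p = 0.0238). Between CR and Met it was -0.88 (exact permutation test, p = 0.0238, adjusted p = 0.0357), or -0.42 without background subtraction, and the adjusted p was above 0.05 without CR mouse 3 or any 1 Met mouse. Between Met and SD it was -0.15 (exact permutation test, p = 0.333, adjusted p = 0.333). On slide 2, CR minus Met mice 4 and 5 was -0.88 as well, where the exact permutation test gave p = 0.143. On slide 1, Met mice 1 to 3 minus SD was -0.16 (exact permutation test, p = 0.393).

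**Figure D3:**
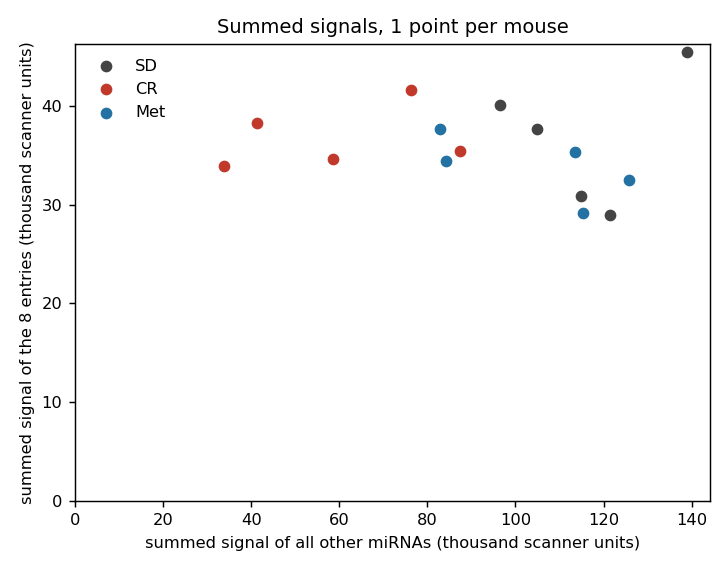
Summed signal of the 8 entries against that of all other mouse miRNAs, both in scanner units divided by 1000, with 1 point for each mouse. The CR points spread to the left while their height stays in the range of the other diets.

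Most of the difference in that sum lay in entries taken as pieces of transfer RNA, a list of miR-720_v18.0, miR-1937b_v16.0, miR-1937c_v16.0 and miR-5097. miR-1937b_v16.0, the brightest entry in SD, gave 51572, 73139, 72262, 64721 and 38865 units in SD mice 1 to 5. It gave 23601, 9564, 8887, 20696 and 31572 units in CR mice 1 to 5, and 28963, 60744, 54314, 26179 and 62447 units in Met mice 1 to 5. All CR arrays lay below all SD arrays, and CR overlapped with Met. The list's summed signal was 66545 ± 16332 units in SD, 20618 ± 10591 in CR and 51645 ± 20108 in Met (mean ± SD, n = 5).

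When these 4 entries were left out of the sum, a choice made after their values were seen, the share of the 8 withdrawn entries was 42.8% ± 1.19 in SD, 49.6% ± 7.40 in CR and 39.1% ± 2.25 in Met (mean ± SD, n = 5). The CR arrays then ranged from 40.1% to 58.3% and the SD arrays from 41.8% to 44.8%, so the diets overlapped. The summed signal of the remaining other miRNAs was 0.37 lower in CR than in SD on the log2 scale (exact permutation test, p = 0.167, adjusted p = 0.250). The entries left out were known to be lower in CR, which makes a smaller difference likely, so no conclusion is drawn from this test. miR-122-5p, the main hepatocyte miRNA, held 9.95% ± 2.33 in SD, 13.4% ± 1.52 in CR and 12.5% ± 1.33 in Met (mean ± SD, n = 5) of the full sum. In units it gave 15082 in SD and 13151 in CR, while the other 5 hepatocyte markers lay lower in CR in proportion, with miR-192-5p at 1396 and 700, miR-194-5p at 859 and 533, miR-148a-3p at 485 and 227, miR-101a-3p at 92.6 and 39.3 and miR-802-5p at 29.3 and 10.

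Control spots on the same arrays also differed in brightness. Of the 15 names of positive control spots, 5 gave over 1000 units on every array, and these 5 were looked at after their values were seen. All 5 had higher means in CR than in SD, from 0.21 on the log2 scale for mr_1 to 0.53 for hur_4. Over the 15 arrays, the log2 signal of miR-2146_v15.0 had a Pearson correlation of 0.713 and a Spearman correlation of 0.775 with hur_6, the highest of the 5, and a Pearson correlation of 0.777 without the 2 arrays farthest from the median of hur_6. With hur_2, the lowest of the 5, the Pearson correlation was 0.409 and the Spearman correlation 0.293. With hur_4, hur_1 and mr_1 the Pearson correlations were 0.552, 0.632 and 0.666, and that with hur_1 was 0.449 without CR mice 1 and 2. The bright corner spots, another positive control, were dim in CR, at 28.5 ± 6.32 units against 167 ± 112 in SD and 117 ± 33.8 in Met (mean ± SD, n = 5). The negative control spots had medians of 109 ± 3.97, 114 ± 2.92 and 116 ± 1.79 units without background subtraction in SD, CR and Met. The part of these control values in the results for the entries was not tested.

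On the z-score scale the entries looked different from their brightness. A z-score is the natural log of a spot's signal minus the array's mean over all spots, divided by the array's standard deviation over all spots. The z-score of miR-2146_v15.0 was 5.98, 6.17, 6.28, 6.28 and 6.58 in SD mice 1 to 5. It was 6.77, 7.37, 7.26, 6.83 and 6.32 in CR mice 1 to 5 and 6.50, 6.21, 6.39, 6.18 and 6.18 in Met mice 1 to 5. CR mice 1 to 4 lay above all SD and Met arrays, and CR mouse 5 lay among them. The standard deviation that divides each array was 0.758 ± 0.0268 in SD, 0.705 ± 0.0476 in CR and 0.744 ± 0.0152 in Met (mean ± SD, n = 5), with the lowest values, 0.674 and 0.646, in CR mice 2 and 3.

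**Figure D4:**
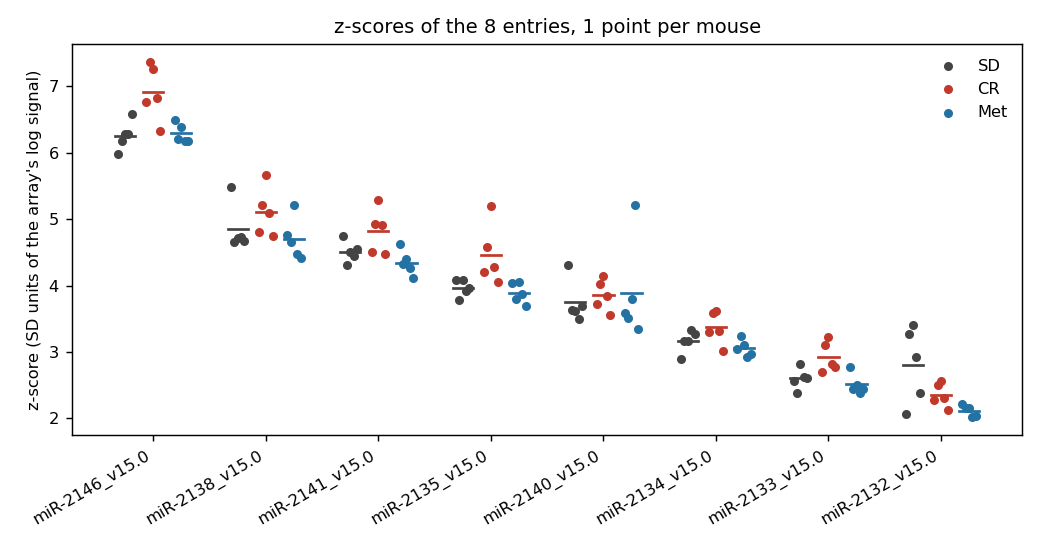
z-scores of the 8 entries, in standard deviations of the log signal of an array, with 1 point for each mouse and a bar at the mean of each diet (n = 5). CR lies highest on average for miR-2146_v15.0 (6.91 against 6.26 in SD and 6.29 in Met), and SD for miR-2132_v15.0 (2.81 against 2.36 in CR and 2.11 in Met), where the Z ratio for CR against SD was 0.00345 with the total gene signal.

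Over the 15 arrays, the z-score of miR-2146_v15.0 had a Pearson correlation of -0.784 and a Spearman correlation of -0.514 with this standard deviation. Without CR mice 2 and 3, the arrays farthest from its median, the Pearson correlation was -0.393, so the relation rests in large part on them. With the log2 summed signal of all other miRNAs the Pearson correlation was -0.901 (Spearman -0.761), -0.711 without CR mice 2 and 3 and -0.759 for deviations from the group means. The log2 signal of miR-2146_v15.0 itself had a Pearson correlation of -0.157 (Spearman -0.250) with that sum. These correlations are descriptions, since a z-score contains the array's own mean and standard deviation.

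Between CR and SD, 4 of the 8 entries met the criteria, which were limma's p of 0.05 or less, an adjusted p of 0.3 or less and an absolute Z ratio of 1.5 or more. The Z ratio is the difference in mean z-score divided by the standard deviation of such differences over all mouse miRNAs. A miRNA was tested if all 5 arrays of 1 diet or more detected it, which held for 178 miRNAs with all 8 entries among them. Of these 178, 17.4% met the criteria, 2.81% higher and 14.6% lower in CR. The entries were higher in CR for miR-2146_v15.0, miR-2135_v15.0 and miR-2133_v15.0 and lower for miR-2132_v15.0, with Z ratios of 3.93, 2.98, 1.94 and -2.74, the last of which was 0.00345 with the software's total gene signal. The call of miR-2132_v15.0 was also lost with the slide as a block, with z-scores without the spots of the entries and when any 1 of 10 of the 15 mice was left out. Its Z ratio was then -1.75, -2.45 and between -2.74 and -1.87. The call of miR-2135_v15.0 was lost with the slide as a block (Z ratio 3.74) and without CR mice 2 and 3 together. That of miR-2133_v15.0 was lost without SD mouse 2, CR mouse 2, CR mouse 3 or both CR mice, and that of miR-2146_v15.0 with quantile normalization. With no filter, 2 of the 8 entries met the criteria, both higher in CR, so the 3 higher calls did not all hold there. The higher calls were all lost with the 75th percentile over all probes, the total gene signal and the unscaled log2 median signal without background subtraction. The Z ratios there were 0.679, 1.05 and 0.860 for miR-2135_v15.0 and 0.374, 0.923 and 0.555 for miR-2133_v15.0. Between CR and Met, 5 of the 8 met the criteria, against 20.8% of the miRNAs tested (4.49% higher and 16.3% lower in CR), and these 5 were higher in CR, among them miR-2134_v15.0 at a Z ratio of 2.01 and miR-2141_v15.0 at 3.05. Between Met and SD, 1 of 8 met them, against 1.12% of those tested (0% higher and 1.12% lower in Met), and this was miR-2132_v15.0 at -11.5. That call was lost with the slide as a block, quantile normalization, the total gene signal, alignment at the 75th percentile over probes of detected miRNAs or no filter, and without SD mouse 2, 3 or 4 or Met mouse 4 or 5. The Z ratios had been part of the choice of the entries, so these counts are no evidence about them.

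The direction depended on the scale. In z-scores, 7 of the 8 entries had a higher mean in CR than in SD, but 3 of 8 had one in unscaled log2 signal and when the arrays were aligned at the 75th percentile over all probes, and 8 of 8 with the software's total gene signal. Among all 178 miRNAs tested, 41.6% were higher in CR in z-scores and 24.2% in unscaled log2 signal. With the 75th percentile over all probes 48 of the 178 were higher, and with the total gene signal 110. The median difference over the 8 entries was 0.283 in z-score and -0.0375 in log2 signal, beside -0.0161 and -0.284 over the 178 miRNAs tested. Between CR and Met, 7 of 8 entries were higher in CR on both scales, with medians of 0.405 in z-score and 0.134 in log2 signal, beside -0.0292 and -0.385 over those tested. The arrays of CR and SD overlapped for all 8 entries on both scales, so 0 of 8 lay wholly higher or lower. Of those tested, 0.562% lay wholly higher and 9.55% wholly lower in CR in log2 signal, and 3.37% and 7.87% in z-score. Between CR and Met, 1 of 8 entries, miR-2135_v15.0, lay wholly higher in CR in z-score, against 6.18% of those tested, with 8.99% wholly lower. In log2 signal, 0 of 8 did, against 1.69% higher and 12.9% lower. Between Met and SD, 0 of 8 entries lay apart, against 1.12% higher and 1.69% lower in log2 signal and 0.562% and 1.69% in z-score. When the arrays were aligned at the 75th percentile over all probes, 0 of the 8 met the criteria between CR and Met and 1, miR-2132_v15.0, between CR and SD, beside 31 and 32 of the 178 tested, all of them lower in CR. With the total gene signal, 0 of the 8 met them in either comparison, beside 18 of the 178 for CR against Met and 20 for CR against SD.

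**Figure D5:**
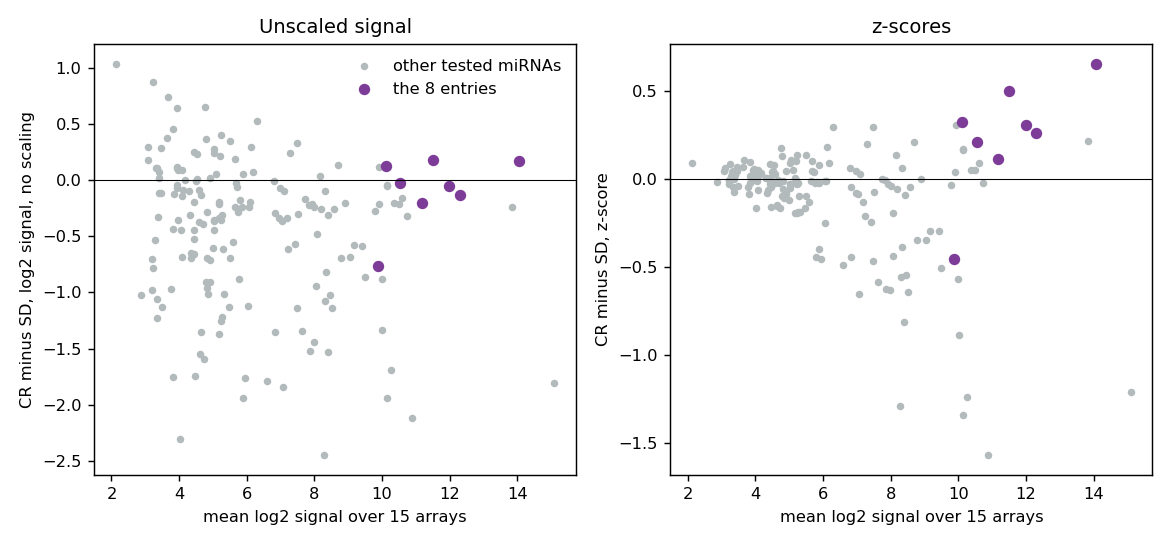
Difference between CR and SD means for the 178 tested miRNAs against their mean log2 signal, in unscaled log2 signal on the left and in z-scores on the right, with the 8 entries in color. The median of the 8 entries is -0.0375 on the left and 0.283 on the right.

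With the slide as a block, 2 of the 8 entries met the criteria for CR against SD, 6 for CR against Met and 0 for Met against SD, beside 17, 34 and 0 of the 178 tested. The Z ratios of miR-2146_v15.0 were then 4.67, 4.35 and 2.06. On slide 2 the z-score of miR-2146_v15.0 was 6.91 in the 5 CR mice and 6.18 in Met mice 4 and 5, and on slide 1 it was 6.37 in Met mice 1 to 3 and 6.26 in the SD mice. For miR-2132_v15.0 the values on slide 1 were 2.17 in Met mice 1 to 3 and 2.81 in the SD mice.

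The entries did not all vary together. Over the 15 arrays, the z-scores of miR-2146_v15.0 had Pearson correlations of 0.862 with miR-2134_v15.0, 0.846 with miR-2133_v15.0, 0.841 with miR-2135_v15.0 and 0.771 with miR-2141_v15.0. With miR-2138_v15.0 the correlation was 0.520, with miR-2140_v15.0 it was 0.0711 and with miR-2132_v15.0 it was 0.0321. The closest pair among the 8 was miR-2135_v15.0 and miR-2141_v15.0, at 0.923. In unscaled log2 signal, miR-2146_v15.0 had correlations of 0.718 with miR-2133_v15.0, 0.682 with miR-2134_v15.0 and 0.0263 with miR-2138_v15.0. All z-scores of an array share its mean and standard deviation.

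Of the 170 other miRNAs tested, 66 had a positive and 104 a negative Pearson correlation of z-scores with miR-2146_v15.0 over the 15 arrays, with a median of -0.238. In unscaled log2 signal the tally was the other way, with 110 positive, 60 negative and a median of 0.104. The highest was that of miR-744-5p, at 0.959 (Spearman 0.839), followed by miR-193a-5p at 0.935, miR-770-3p at 0.900, miR-139-3p at 0.880 and miR-338-5p at 0.869. These 5 were dim, with mean signals between 7.16 and 15.9 units in SD. Their mean z-scores were below 0 in every diet, from -0.249 for miR-338-5p in SD to -0.128 for miR-139-3p in CR. The undetected miR-2139 had a mean z-score of -0.358 in SD. How much of these 5 correlations comes from the scaling shared by an array was not tested. The lowest was that of miR-142-3p, a leukocyte marker, at -0.928 (Spearman -0.861), followed by miR-101a-3p at -0.913, miR-29b-3p at -0.899, miR-30e-5p at -0.889 and miR-19b-3p at -0.885. miR-29b-3p had a mean signal of 357 units in SD, 347 in Met and 169 in CR.

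In unscaled log2 signal, these correlations were 0.489 for miR-744-5p, 0.790 for miR-193a-5p and -0.153 for miR-142-3p, and between -0.0222 and -0.0584 for the other 4 of the lowest. Without CR mice 2 and 3, the z-score correlation was 0.868 for miR-744-5p and -0.811 for miR-142-3p. For the rest of the highest it then lay between 0.647 for miR-139-3p and 0.916 for miR-193a-5p. For the rest of the lowest it lay between -0.732 for miR-29b-3p and -0.577 for miR-19b-3p. In the sequences printed above, G and C made up from 45.5% to 72.7% of the bases of the 5 with the highest correlation and from 33.3% to 40.9% of the 4 printed with the lowest. These shares describe the printed sequences only.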

How the data were processed

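The scanner files the authors deposited, made with Feature Extraction 11.5.1.1, give a linear intensity for every spot and its local background, not normalized between arrays. They also deposited a table of 15744 lines, 1109 of them without a value, with a score for spots that matched, to within 0.0005, a z-score taken over all spots, controls included, from the log median signal. Here z-scores were derived again from the scanner files, without outlier spots, and spots of a probe and then probes of a miRNA were averaged. Shares used the signal minus local background, averaged in the same way, with negative values set to 0, and values below 1 were set to 1 for the log2 signal. The number of arrays limits the precision.

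All 15 arrays entered 1 fit with limma 3.58.1 in R 4.3.3, with moderated variances that follow the mean, and p-values were adjusted by Benjamini-Hochberg over the 178 miRNAs tested. The limits are those of the study's methods, where they belong to a pairwise z-test. The summed signal of the other miRNAs was compared by exact permutation. Simulated data with independent noise and changes added in CR, without effects of slide or array, served to check that the limma step finds such changes. They did not test the criteria used here. The rest used Python 3.11.15, matplotlib 3.10.9, scipy 1.17.1, pandas 2.3.3 and numpy 2.4.6.

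The entries, the lists and the tests were chosen with earlier results of these data known. Besides the 8 entries and their neighbors by number, the named miRNAs are the 5 highest and 5 lowest in correlation with miR-2146_v15.0, the brightest others in SD, the former miRNAs derived from transfer RNA and the markers of cell types. Alternatives were scaling to the 75th percentile, quantile normalization, z-scores without the spots of the entries, normexp with an offset of 50, the total gene signal (floored at 0.1 before the log), other filters, the deposited scores, the pairwise z-test, blocks for the slide or for the replicate number, and omission of single mice. Unscaled log2 median signal without background subtraction, CR mice 2 and 3 left out together, and sums without the former miRNAs derived from transfer RNA were chosen after seeing the data. A Z ratio could not move when a mouse outside its comparison was omitted. The block for the replicate number, with each number present in every diet, could not move it either.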

Additional observations from a re-analysis of the deposited data

Results flagged for a closer look

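In 3 of 30 groups of 5 arrays looked at, 1 array lay far from the others, by a gap over 0.71 of the group's range. Chance flags about 1 in 20 groups. The z-score of miR-2138_v15.0 was 5.49 in SD mouse 1, and between 4.65 and 4.73 in the other SD mice. The z-score of miR-2140_v15.0 was 4.31 in SD mouse 1, against 3.49 to 3.69 in the others, and 5.21 in Met mouse 4, against 3.34 to 3.80.

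The spots of 2 control names, which enter the mean and standard deviation behind the z-scores, were brighter on all CR arrays than on any SD array. The mean in CR was 106815 units for hur_2, with a lowest CR array of 90436 and a highest SD array of 86662, and 3661 units for hur_4, with 2943 and 2906. What these spots bind is not given in the sources used here.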

How the results depend on the processing

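For CR against SD, the criteria were met by 31 miRNAs, 4 of them entries. The counts were 120 and 5 with arrays aligned at the 75th percentile over probes of miRNAs detected on all arrays, 32 and 1 with that of all probes, 39 and 2 with quantile normalization, 20 and 0 with the total gene signal, 27 and 2 with no filter, 17 and 2 with the slide as a block, 28 and 1 with the unscaled log2 median signal, background not subtracted (unscaled median signal), and 22 and 2 without CR mice 2 and 3. Leaving out 1 mouse gave 26 to 36 and 2 to 6, with 2 entries without SD mouse 2. Of the calls, 5 of 31 were higher in CR, but 110 of 120 with the percentile of detected probes, 20 of 39 with quantile normalization, 0 of 32 with that of all probes and 0 of 28 with the unscaled median signal. The median log2 difference over the tested miRNAs was 0.37 with the percentile of detected probes (0.30 between CR and Met) and -0.04 with the unscaled median signal (-0.11 between CR and Met). With background subtracted, the unscaled medians were -0.284 and -0.385. For miR-2132_v15.0, the Z ratio of -2.74 for CR against SD was 0.00345 with the total gene signal. Its call was lost in 8 settings and without SD mouse 2, 3 or 4, CR mouse 1, 4 or 5 or Met mouse 1, 2, 3 or 5. That of miR-2133_v15.0 was lost without SD mouse 2 or CR mouse 2 or 3. Calls were gained by miR-2134_v15.0 without CR mouse 5, by miR-2138_v15.0 without SD mouse 1 and by miR-2141_v15.0 without SD mouse 1 or CR mouse 1 or 5.

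Between CR and Met, 37 miRNAs and 5 entries met the criteria. These were 116 and 6 with the percentile of detected probes (101 of 116 higher in CR), 31 and 0 with that of all probes (0 of 31 higher), 47 and 4 with quantile normalization (21 of 47 higher), 18 and 0 with the total gene signal (2 of 18 higher), 35 and 0 with the unscaled median signal (0 of 35 higher), and 18 and 2 without CR mice 2 and 3. Leaving out 1 mouse gave 29 to 42 and 4 to 6, with miR-2134_v15.0 lost without CR mouse 2 or 3 or Met mouse 4 or 5, and miR-2138_v15.0 gained without SD mouse 1, CR mouse 5 or Met mouse 3.

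Between Met and SD, 2 miRNAs met them, 1 of them the entry miR-2132_v15.0. They were 0 and 0 with the percentile of detected probes, quantile normalization, the total gene signal or the slide as a block, 1 and 0 with no filter, 13 and 1 with the z-test (9 of 13 higher in Met), 8 and 1 with the unscaled median signal (6 of 8 higher) and 5 and 1 without CR mice 2 and 3. Leaving out 1 mouse gave 1 to 9 and 0 to 1, with 9 without SD mouse 5. Omitting SD mouse 2, 3 or 4 or Met mouse 4 or 5 left 1 miRNA, not miR-2132_v15.0.

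With the replicate number as a block (replicate block), 32, 37 and 2 miRNAs and 4, 5 and 1 entries met the criteria in the 3 comparisons. Same-numbered mice did not pair, with correlations from -0.562 to 0.714 and 4 of 15 pairs over 0.1. Of 15 arrays, 3 were closest to their own number.

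The mean share of the entries was 16.4% in SD, 21.7% in CR and 16.1% in Met without background subtraction, and 42.8%, 49.6% and 39.1% without the entries derived from transfer RNA. In that sum, the difference in log2 summed signal of the other miRNAs was -0.37 between CR and SD (exact permutation, adjusted p = 0.250), -0.50 between CR and Met (adjusted p = 0.190) and 0.12 between Met and SD (adjusted p = 0.317), while the full sum gave -1.03, -0.88 and -0.15, and -0.48, -0.42 and -0.06 without background subtraction. Between CR and Met it was -0.88 on slide 2 alone (adjusted p = 0.143, by exact permutation). Leaving out 1 mouse gave -1.04 to -0.70, with adjusted p above 0.05 without CR mouse 3 or any 1 Met mouse. CR and SD share no slide and have no value within 1. Of 624 Z ratios of entries under alternatives, 588 moved less than the spread between mice, 35 more and 1 that met the criteria changed sign. Some of the 588 could not move. Causes were not tested.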
